A study of Homo sapiens with 6 samples.

Results

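DNA replication origin and fork proteins are the factors that mark origins, load and switch on the replicative helicase, and copy both strands behind it. The gene list held 48 genes, chosen by name from the origin recognition complex (ORC), licensing factors, MCM helicase, GINS, Dbf4-dependent kinase (DDK), clamp and clamp loader, replication protein A (RPA), replicative polymerases, flap and ligase enzymes and fork protection proteins. The list was drawn up with earlier results of these data known. All 48 were measured, of 19775 genes named on the array, and all 48 were among the 11835 genes tested. RNA was taken from HT29 cells, a line of human colon adenocarcinoma cells, as 3 samples of methotrexate-sensitive cells and 3 samples of cells resistant to 10 μM methotrexate (MTX), an antifolate that limits the supply of thymidylate and purines for DNA synthesis. Each sample was hybridized to its own Affymetrix HG U133 PLUS 2.0 array. The resistant cells were obtained through stepwise exposure to MTX and were grown without glycine, hypoxanthine and thymidine, in dialyzed serum. Ham's F12 with fetal bovine serum, which the paper does not describe as dialyzed, was the medium of the sensitive cells. The effects of medium and of resistance cannot be told apart here. The samples are triplicates that none of the sources describes as separate cultures, so the p-values measure only the spread between the 3 samples of a group, and this spread may be technical.

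ORC binds origins, and CDC6 and CDT1 then load the MCM2 to MCM7 ring onto DNA, a step that geminin (GMNN) holds back by binding CDT1. DDK and other factors convert the loaded ring into the active helicase, in which CDC45 and the GINS complex sit on MCM2 to MCM7. DNA polymerase alpha with primase then starts each strand, RFC loads the PCNA clamp, and polymerases delta and epsilon extend the strands, while RPA coats single-stranded DNA and TIMELESS, TIPIN and claspin (CLSPN) travel with the fork. Many of these genes are known targets of E2F factors, which switch on genes for S phase.

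Since promoters of such genes are known for E2F sites, stretches of 6 promoters that hold a match to an E2F motif are shown. The signals of GINS1, CLSPN, LIG1 and MCM7 fell in the resistant cells and those of MCM6 and PCNA did not pass the test, so that the set spans both outcomes. The sequences are RefSeq's for build GRCh38.p14, 190 bases each from 160 before to 30 after the outermost annotated start, written 5′ to 3′ on the strand of the gene, and capitals mark the bases of an E2F match. They lie at chr20:25407513-25407702 (plus strand) for GINS1, chr1:35769949-35770138 (minus strand) for CLSPN, chr19:48170315-48170504 (minus strand) for LIG1, chr7:100101368-100101557 (minus strand) for MCM7, chr2:135876414-135876603 (minus strand) for MCM6 and chr20:5126593-5126782 (minus strand) for PCNA.
GINS1: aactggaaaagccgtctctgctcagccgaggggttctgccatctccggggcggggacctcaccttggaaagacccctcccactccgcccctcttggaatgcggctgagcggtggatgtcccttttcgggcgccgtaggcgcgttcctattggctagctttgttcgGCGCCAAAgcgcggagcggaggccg
CLSPN: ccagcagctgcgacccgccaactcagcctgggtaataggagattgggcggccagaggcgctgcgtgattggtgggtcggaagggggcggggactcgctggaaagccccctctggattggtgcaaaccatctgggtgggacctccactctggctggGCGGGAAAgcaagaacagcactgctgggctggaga
LIG1: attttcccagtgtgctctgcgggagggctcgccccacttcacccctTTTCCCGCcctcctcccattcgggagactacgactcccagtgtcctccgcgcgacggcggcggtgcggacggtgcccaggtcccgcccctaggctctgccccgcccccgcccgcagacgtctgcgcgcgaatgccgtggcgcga
MCM7: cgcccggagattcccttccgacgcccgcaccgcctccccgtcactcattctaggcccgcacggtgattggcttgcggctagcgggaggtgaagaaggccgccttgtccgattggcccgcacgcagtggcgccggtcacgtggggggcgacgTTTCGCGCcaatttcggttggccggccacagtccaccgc
MCM6: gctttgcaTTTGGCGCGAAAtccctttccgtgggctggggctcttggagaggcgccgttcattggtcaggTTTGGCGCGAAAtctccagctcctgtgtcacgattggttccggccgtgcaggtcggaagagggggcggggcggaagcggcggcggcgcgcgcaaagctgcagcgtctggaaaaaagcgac
PCNA: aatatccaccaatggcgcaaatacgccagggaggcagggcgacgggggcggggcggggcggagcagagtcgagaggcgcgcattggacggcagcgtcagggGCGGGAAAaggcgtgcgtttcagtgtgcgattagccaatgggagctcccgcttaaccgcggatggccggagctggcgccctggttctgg

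The motif was searched as TTTCCCGC, TTTCGCGC, TTTGCCGC and TTTGGCGC on both strands, in windows from 250 bases before to 50 after the outermost start. Promoters were matched for 42 of the 48 genes, and MCM4, MCM5, GINS4, RPA2, RPA3 and POLD3 had no entry. An E2F match was present in 19 of the 42 (45.2%), against 3.34% of all 27305 promoters and 5.52% of the 9661 promoters of tested genes. For 9 genes of the list RefSeq gives several windows, and which start HT29 cells use is not known here. With a match in any window counted, 22 of 42 (52.4%) had one, against 3.99% of all genes with a promoter. MCM6 held 4 matches, made of a pair of stretches that each read as a match on both strands with overlapping bases, and PCNA held a single match at -59 to -52. In GINS1 the match lay at 6 to 13 after the start, and in LIG1 at -114 to -107. MCM7 held a further match outside the printed stretch, at -187 to -180, and its printed match shared 1 base with a CCAAT match.

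Among the genes with an E2F match, 12 of 19 were lower in the resistant cells by the test given next, with a median log2 fold change of -0.46. Among those without a match, 9 of 23 were lower, with a median of -0.27. For tested genes outside the list the share that was lower was 24.5% with a match and 22.0% without. A CCAAT box, searched as CCAAT on both strands, was present in 22 of 42 promoters (52.4%), against 35.7% of all promoters and 37.0% of those of tested genes. Among genes with a CCAAT match 12 of 22 were lower, with a median of -0.48. Without a CCAAT match 9 of 20 were lower, with a median of -0.29. The medians lay about as far apart as for E2F, while the shares that were lower lay closer together than for E2F. For tested genes outside the list the share that was lower was 22.3% with a CCAAT match and 22.1% without. The cell cycle element CHR, searched as TTTGAA on both strands, was present in 1 of 42 (2.38%), DBF4, against 15.5% of all promoters and 9.94% of those of tested genes. These are matches of letters, not measured binding.

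Levels are given as scaled signals, that is MAS5 intensities on a linear scale over the array median, so that a gene at 1 is as bright as the median probe set. Each gene was read from its brightest probe set. Before scaling, array medians ran from 13.3 to 16.9. Changes are log2 fold changes of scaled signal, resistant over sensitive, tested with limma across all tested genes and called at a Benjamini-Hochberg adjusted p under 0.05. A call therefore uses error shared across genes, and the number of arrays limits its precision. Signals of different genes come from different probes and were not ranked against each other. In bulk samples fewer cells of a type and less RNA per cell cannot be told apart. Of 12 colon epithelial markers 10 had a mean scaled signal of at least 1 in the sensitive and 9 in the resistant cells, while CDX1 and CDX2 were under the array median in both. Their summed scaled signal was 2062 to 2274 in sensitive and 1598 to 1798 in resistant arrays. Of 13 fibroblast, endothelial and leukocyte markers 3 reached 1 in each group, with sums of 9.45 to 11.9 and 19.5 to 22.0. COL1A1 ran from 0.465 to 0.890 in sensitive and from 9.46 to 14.6 in resistant arrays. The other fibroblast markers, COL1A2, COL3A1, PDGFRB, THY1 and DCN, had means under 1 in both groups. The higher sum in resistant arrays therefore came mainly from COL1A1 and not from the markers as a set. CD14 ran from 1.56 to 3.05 in sensitive and from 0.0902 to 0.793 in resistant arrays (log2 fold change -2.81, adjusted p = 0.0013). The leukocyte markers CD79A and PTPRC differed from each other, CD79A lying between 1.33 and 1.91 in all 6 arrays and PTPRC under the array median in both groups. For ACTB, 3′ over 5′ probe set signal, which tracks RNA integrity, was 1.12 to 1.17 in sensitive and 1.17 to 1.30 in resistant arrays, and for GAPDH it was 1.00 to 1.01 and 0.980 to 1.04. The part of these shifts in the results below was not tested.

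In the resistant cells 24 of the 48 replication genes were lower, 1 was higher (RPA3) and 23 did not pass the test. The background was 22.5% lower and 12.4% higher among all tested genes, so that the share of replication genes that fell was above the background and the share that rose was below it. The log2 fold change was negative for 44 of the 48 (91.7%), against 58.2% of all tested genes. The median was -0.37 for the list and -0.10 for all tested genes, a difference of -0.27. In 32 of the 48 genes every resistant array lay below every sensitive array, against 29.3% of all tested genes, and in 1 every resistant array lay above, against 16.8%. None of the 48 passed with a fall of at least 3-fold, against 2.19% of all tested genes. That share is so small that none in 48 lies near it. No gene of the list changed 3-fold in limma at any p, against 499 of the 11835 tested genes. The methods' t-test takes the same fold changes, so it could call none of the list at that fold.

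**Figure D1:**
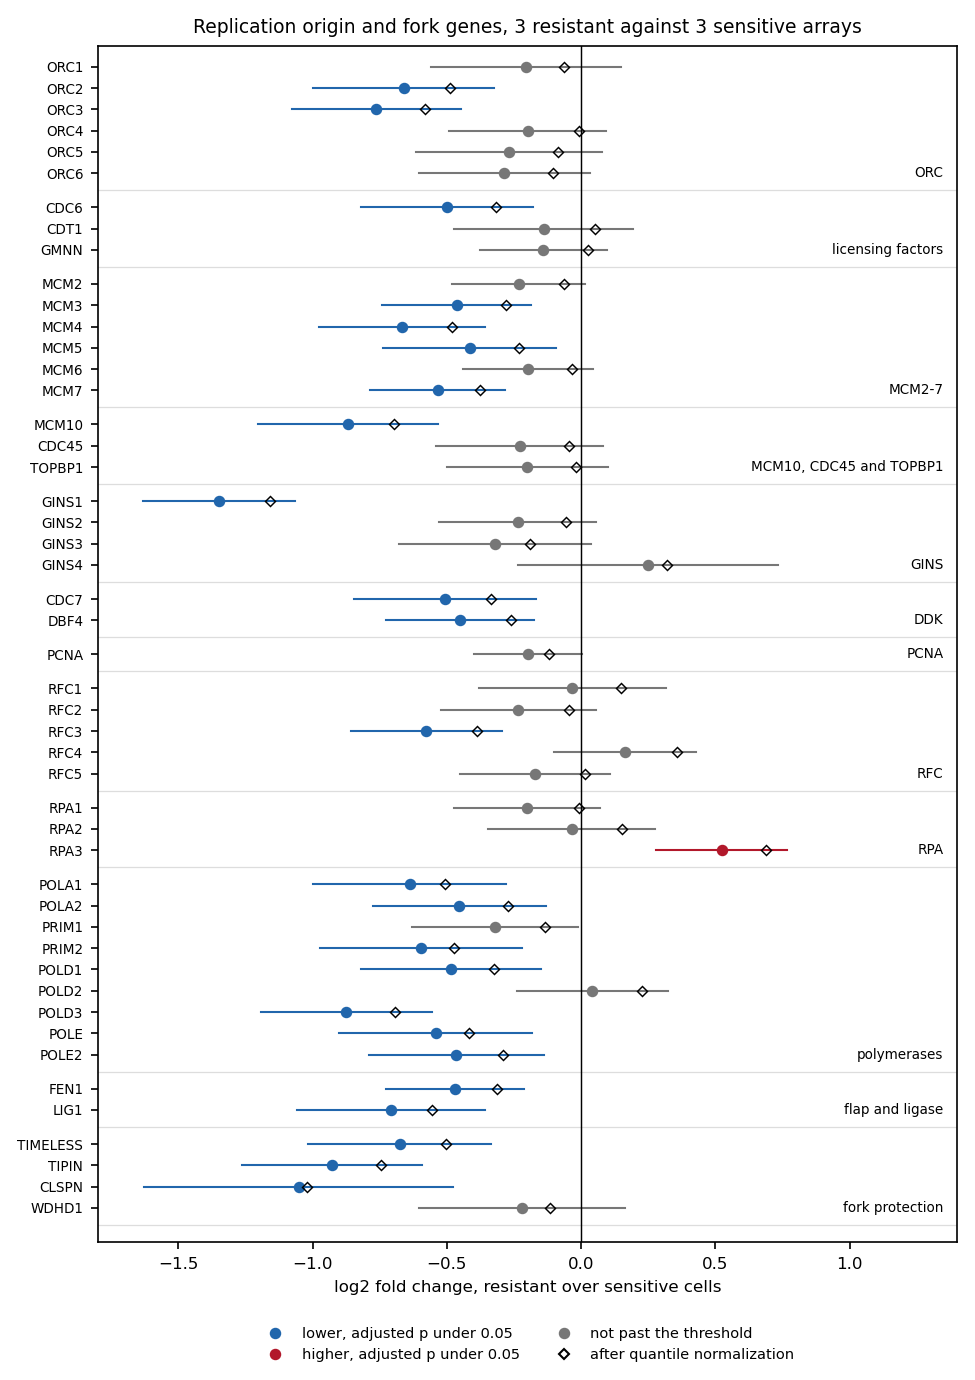
Change of the 48 genes by complex or role, as log2 of resistant over sensitive scaled signal, with points for the array-median scaling, lines for 95% confidence intervals (limma, 3 against 3 arrays) and open diamonds for the value after quantile normalization. GINS1 lies farthest to the left at -1.35, 24 genes are lower, and RPA3 is the gene called higher.

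The counts were also taken after another scaling. After quantile normalization the median of all tested genes was 0.02, and 23 of the 48 were lower against 18.8% of tested genes, while 3 were higher (RPA3, RFC4 and POLD2) against 21.1%. The median of the list was then -0.21. Array by array, the median of the list relative to the sensitive mean was -0.23, -0.49 and -0.37 in resistant 1, 2 and 3, while that of all tested genes was 0.07, -0.20 and -0.15. The list therefore lay below all genes by -0.30, -0.29 and -0.22 in the 3 resistant arrays, and resistant 2 had the lowest values for both. With the methods' t-test on the same values, 9 of the 48 were lower after adjustment with equal variances and 3 with unequal variances, against 9.49% and 1.13% of all tested genes.

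**Figure D2:**
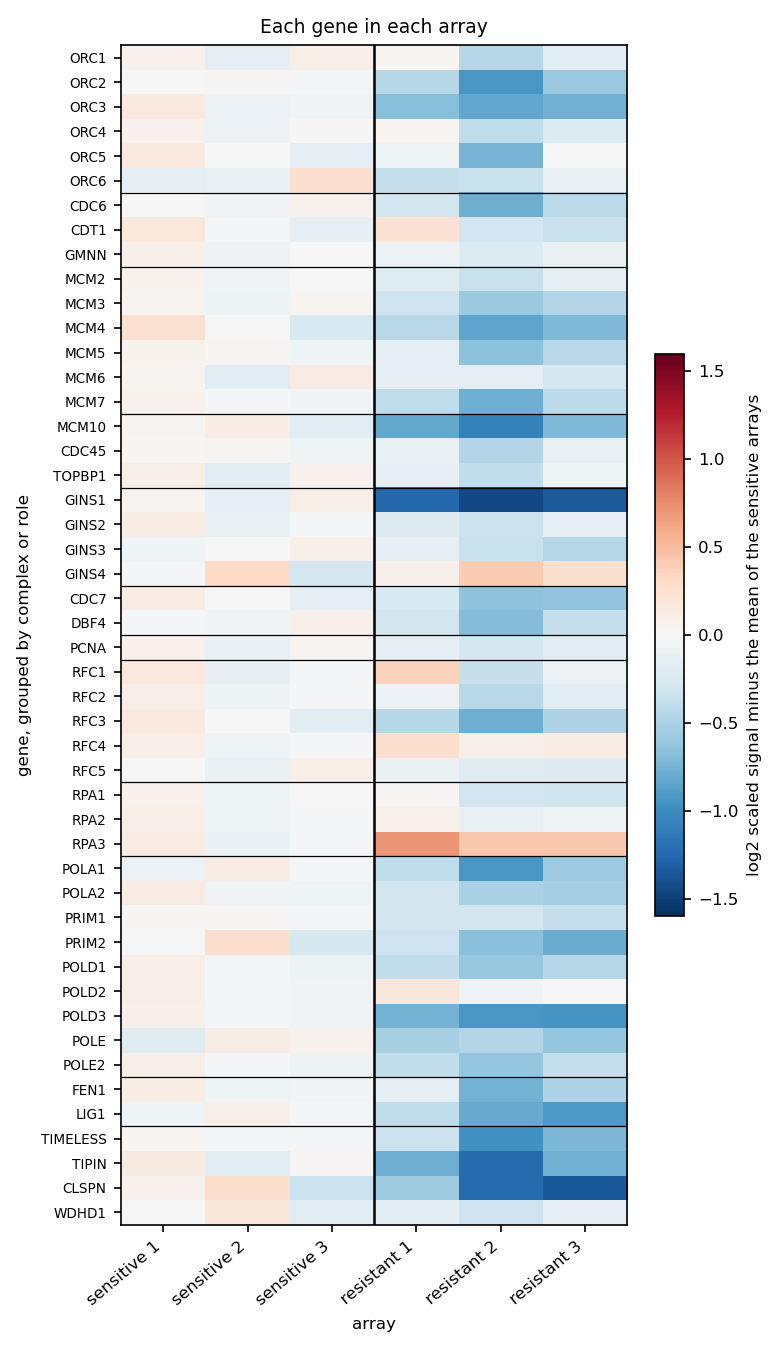
Log2 scaled signal of each of the 48 genes in each of the 6 arrays, minus the mean of the 3 sensitive arrays, with blue for lower and red for higher values and lines between complexes or roles. The rows of GINS1, TIPIN and CLSPN are blue in all 3 resistant arrays, the row of RPA3 is red in all 3, and the list median was lowest in resistant 2 (-0.49).

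At origins, ORC2 and ORC3 were lower and the other 4 ORC subunits did not pass the test. The share lower was 33.3%, against 22.5% of all tested genes. ORC3, a core subunit of the complex, had scaled signals of 39.9, 33.5 and 34.4 in sensitive and 22.4, 20.1 and 21.0 in resistant arrays. The groups did not overlap, and the level in resistant cells was 58.9% of that in sensitive cells (log2 fold change -0.76, SE 0.16, adjusted p = 0.00016). ORC2, also a core subunit, had signals of 21.9, 22.2 and 21.8 against 16.0, 11.5 and 14.5. All 3 resistant arrays were below the sensitive arrays, with resistant 2 the lowest (log2 fold change -0.66, SE 0.17, adjusted p = 0.0018). The other probe set of ORC2 had a log2 fold change of -0.35 and did not pass among probe sets (adjusted p = 0.14). With the median of both, ORC2 still passed in limma (-0.51, adjusted p = 0.017). ORC1, ORC4, ORC5 and ORC6 had log2 fold changes of -0.20, -0.20, -0.27 and -0.29, and each had sensitive and resistant arrays that overlapped. ORC4 passed as lower without resistant 1 (log2 fold change -0.31, adjusted p = 0.048). The median of the 6 subunits was -0.28.

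Of the licensing factors, CDC6 was lower, and CDT1 and its inhibitor GMNN did not pass. CDC6, the ATPase that joins ORC in loading the MCM ring, had signals of 36.1, 34.9 and 38.0 in sensitive and 29.6, 21.2 and 27.0 in resistant arrays. The groups did not overlap (log2 fold change -0.50, SE 0.16, adjusted p = 0.012). The CDC6 call was lost without sensitive 3 (adjusted p = 0.065) or without resistant 2 (adjusted p = 0.062). GMNN had signals of 125, 111 and 117 against 110, 101 and 110, a narrow gap between groups (log2 fold change -0.14, adjusted p = 0.38). CDT1 had 36.6, 31.9 and 29.9 against 38.5, 26.4 and 25.6, with resistant 1 the highest of all 6 arrays (log2 fold change -0.14, adjusted p = 0.55). After quantile normalization the log2 fold changes of GMNN and CDT1 were 0.03 and 0.05, so that their sign depends on the scaling.

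The RNA signal of CDT1 relative to that of its inhibitor was compared within each array, where scaling cancels. Protein levels were not measured. The log2 ratio of CDT1 to GMNN signal averaged -1.85 over the sensitive arrays (SD 0.11, n = 3) and -1.85 over the resistant arrays (SD 0.30, n = 3), and the means differed by less than the spread between arrays (exact permutation test, two-sided p = 1). With 3 against 3 arrays this test cannot go below 0.1. The difference between the means was -0.17 without resistant 1 and 0.12 without resistant 3. Only the difference between groups can be read from such a ratio, since the signals come from different probes.

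Of the MCM2 to MCM7 helicase subunits 4 of 6 were lower, and in 5 of 6 the groups did not overlap. Over all tested genes these shares were 22.5% and 29.3%. MCM4 had signals of 65.7, 55.8 and 47.0 in sensitive and 40.8, 30.9 and 34.1 in resistant arrays. Its groups did not overlap (log2 fold change -0.67, SE 0.15, adjusted p = 0.00070), and its other 3 tested probe sets had larger log2 fold changes of -0.94, -1.21 and -1.59, each of them past the test among probe sets. MCM7 had signals of 132, 124 and 122 against 95.4, 73.7 and 94.4, with every resistant array below the sensitive arrays (log2 fold change -0.53, SE 0.12, adjusted p = 0.00082). MCM3 (-0.46, adjusted p = 0.0072) and MCM5 (-0.41, adjusted p = 0.039) also fell. The other probe set of MCM5 had a log2 fold change of -0.23 and did not pass among probe sets (adjusted p = 0.34). The MCM5 call was the least stable of the 24, with 12 of 19 alternatives ending it. It was lost after quantile normalization (adjusted p = 0.061), and in 5 of the 6 fits that left out an array, those without sensitive 1, 2 or 3 and without resistant 2 or 3. MCM2 and MCM6, whose promoters both held E2F matches, had log2 fold changes of -0.23 and -0.20 and did not pass (adjusted p = 0.14 and 0.21).

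Among the factors that turn the loaded ring into a moving helicase, MCM10 was lower while CDC45 and TOPBP1 did not pass. MCM10, needed for origin firing and elongation, had signals of 26.6, 28.0 and 23.0 in sensitive and 14.6, 12.2 and 15.8 in resistant arrays. No arrays overlapped, and the level was 54.8% of that in sensitive cells (log2 fold change -0.87, SE 0.17, adjusted p = 6.3e-05). Its other 2 probe sets had log2 fold changes of -0.77 and -0.30, the latter not past the test. CDC45, which rides with MCM2 to MCM7 in the active helicase, had signals of 36.6, 37.1 and 34.2 against 33.4, 26.1 and 33.2 (log2 fold change -0.23, adjusted p = 0.26). Its groups were separated only narrowly, by resistant 1 and 3 lying just under sensitive 3. TOPBP1, a scaffold for helicase assembly and for ATR signalling, had a log2 fold change of -0.20 (adjusted p = 0.31).

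The 4 GINS genes spanned log2 fold changes from -1.35 to 0.25, and GINS1 was the gene of the complex that passed. As a share, 25% of the complex was lower, near the 22.5% of all tested genes. GINS1 had signals of 87.5, 77.9 and 90.8 in sensitive and 35.6, 31.3 and 33.6 in resistant arrays. The groups were far apart, and the level in resistant cells was 39.3% of that in sensitive cells (log2 fold change -1.35, 95% confidence interval -1.63 to -1.07, adjusted p = 3.7e-10). GINS1 had the largest log2 fold change of the 48 genes and was the only call of the list that none of the 19 alternatives ended. GINS3 had signals of 8.70, 9.07 and 9.68 against 8.32, 7.12 and 6.64, without overlap (log2 fold change -0.32, adjusted p = 0.16). GINS3 passed without resistant 1 (log2 fold change -0.41, adjusted p = 0.042), which brought the count of lower GINS genes from 1 to 2, and its other probe set had a log2 fold change of -0.54 (adjusted p = 0.026 among probe sets). GINS2 had a log2 fold change of -0.24 (adjusted p = 0.21) with an interval from -0.53 to 0.06. GINS4 was dim and had a log2 fold change of 0.25 (adjusted p = 0.45), while its other tested probe set had one of 1.11 (adjusted p = 0.018 among probe sets). GINS1 is represented by a single probe set, so that its fall has no second probe set to set beside it.

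**Figure D3:**
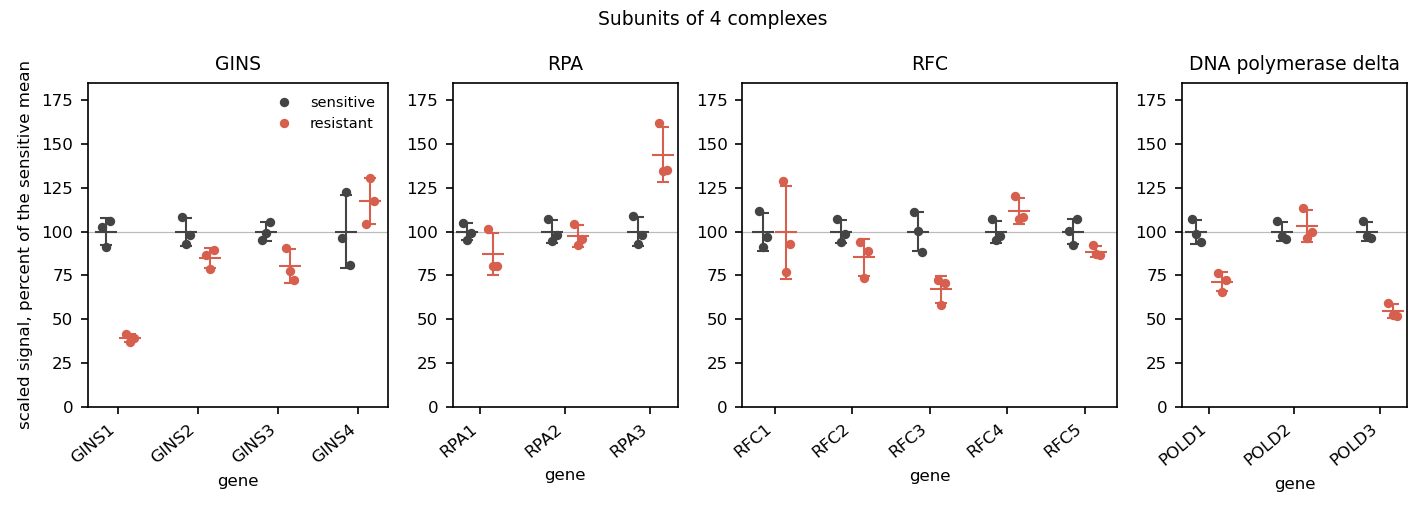
Scaled signal of each subunit of GINS, RPA, RFC and DNA polymerase delta as percent of its sensitive mean, with a point for each array, a bar at the mean and whiskers of 1 SD (n = 3). The 3 resistant arrays of GINS1 sit near 39.3% and those of POLD3 near 54.6%, while those of RPA3 lie above the sensitive arrays.

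Both subunits of DDK, the kinase that phosphorylates the MCM ring at origins, were lower. CDC7, the catalytic subunit, had signals of 22.5, 20.5 and 18.5 in sensitive and 17.2, 13.1 and 13.2 in resistant arrays. DBF4, its activating partner, had 80.4, 78.0 and 86.0 against 66.4, 50.5 and 62.9. In neither gene did the groups overlap, and the log2 fold changes were -0.51 (SE 0.17, adjusted p = 0.017) and -0.45 (SE 0.14, adjusted p = 0.0083). The CDC7 call was lost without sensitive 1 or 2 or without resistant 2 or 3 (adjusted p = 0.105, 0.069, 0.058 and 0.065), and the DBF4 call without sensitive 3 (adjusted p = 0.061).

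PCNA, the sliding clamp, had signals of 252, 220 and 248 in sensitive and 217, 197 and 212 in resistant arrays. Every resistant array was below every sensitive array by a small margin, and the log2 fold change of -0.20 did not pass the test (interval -0.40 to 0.00, adjusted p = 0.12). Of the 5 RFC subunits, which form the clamp loader, RFC3 was lower and the other 4 did not pass. A share of 20% lower lay near the 22.5% of all tested genes. RFC3 had signals of 87.0, 78.5 and 69.3 against 56.7, 45.5 and 55.1, without overlap (log2 fold change -0.58, SE 0.14, adjusted p = 0.0012), and its other tested probe set had a like log2 fold change of -0.55. RFC2 had signals of 61.9, 54.4 and 57.1 against 54.3, 42.5 and 51.3, groups that nearly touched (log2 fold change -0.23, adjusted p = 0.21). RFC1, the large subunit, had a log2 fold change of -0.03 with an interval from -0.38 to 0.31. RFC4 had a log2 fold change of 0.16 (adjusted p = 0.35), and of 0.36 after quantile normalization (adjusted p = 0.0015), where it passed as higher. RFC5 depended on the probe set, since its brightest had a log2 fold change of -0.17 (adjusted p = 0.36), while the others had -0.53 and -0.86, both lower in the test among probe sets. With the median of a gene's probe sets RFC5 also passed, which brought the count of lower RFC subunits from 1 to 2.

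RPA3, the smallest subunit of the single-stranded DNA binding trimer, was the gene that rose. It had signals of 102, 86.7 and 91.7 in sensitive and 152, 126 and 126 in resistant arrays. The lowest resistant array was above the highest sensitive array, and the level in resistant cells was 144% of that in sensitive cells (log2 fold change 0.52, SE 0.12, adjusted p = 0.00077). RPA1, the large subunit that makes most contacts with DNA, had signals of 80.0, 72.6 and 75.5 against 77.0, 61.3 and 61.1. Its groups overlapped through resistant 1 (log2 fold change -0.20, adjusted p = 0.26), and without resistant 1 it passed as lower (log2 fold change -0.31, adjusted p = 0.035). RPA2, the middle subunit, had a log2 fold change of -0.04 (interval -0.35 to 0.28). RPA2 and RPA3 are read from a single probe set each.

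Of the 9 polymerase and primase subunits 7 were lower (77.8%), against 22.5% of all tested genes. POLD3, an accessory subunit of polymerase delta, had signals of 33.3, 30.7 and 30.2 in sensitive and 18.6, 16.5 and 16.3 in resistant arrays. The groups were widely separated (log2 fold change -0.87, SE 0.16, adjusted p = 2.9e-05), while a second, dim probe set of POLD3 had a log2 fold change of 0.31 (adjusted p = 0.44). With the median of both, POLD3 had a log2 fold change of -0.28 and did not pass (adjusted p = 0.23). POLA1, the catalytic subunit of polymerase alpha, had signals of 11.4, 13.2 and 11.9 against 9.17, 6.36 and 8.14, again without overlap (log2 fold change -0.64, SE 0.18, adjusted p = 0.0045). Its partners POLA2 (-0.45, adjusted p = 0.024) and PRIM2 (-0.60, adjusted p = 0.011) fell, and the primase catalytic subunit PRIM1 had a log2 fold change of -0.32 (adjusted p = 0.10), with 31.0, 30.9 and 30.1 against 25.0, 24.9 and 23.8. PRIM1 arrays did not overlap and were tight within each group. Thus 3 of the 4 genes of the polymerase alpha and primase complex passed.

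The catalytic subunits of the leading and lagging strand polymerases were both lower. POLE, the catalytic subunit of polymerase epsilon, had signals of 8.27, 10.2 and 9.91 in sensitive and 6.51, 6.83 and 6.12 in resistant arrays. POLD1, that of polymerase delta, had 18.6, 17.0 and 16.2 against 13.2, 11.3 and 12.6. Both had groups without overlap, with log2 fold changes of -0.54 (SE 0.18, adjusted p = 0.016) and -0.49 (SE 0.17, adjusted p = 0.020). The log2 ratio of POLE to POLD1 signal within arrays was -0.87 ± 0.26 (SD, n = 3) and -0.93 ± 0.17 (SD, n = 3), a difference smaller than the spread between arrays (exact permutation test, two-sided p = 0.9; 1 after adjustment over the 2 ratios computed). That difference, -0.06, was -0.21 without sensitive 1 and -0.16 without resistant 2, 0.01 and 0.02 without sensitive 2 and 3, and -0.01 and 0.00 without resistant 1 and 3. POLE2, an accessory subunit of polymerase epsilon, fell (-0.46, adjusted p = 0.022), and POLD2 of polymerase delta had a log2 fold change of 0.04 (interval -0.24 to 0.32). After quantile normalization POLD2 passed as higher (log2 fold change 0.23, adjusted p = 0.026). The count of 7 was sensitive to the arrays used, since 4 of the 9 were lower without sensitive 1, 2 without sensitive 2 and 4 without sensitive 3. The calls lost in these fits were among POLA2, PRIM2, POLD1, POLE and POLE2, with adjusted p from 0.055 to 0.145, and POLA2 was also lost without resistant 3, and POLD1 and POLE2 without resistant 2. PRIM1 passed without resistant 1 (adjusted p = 0.042).

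Both enzymes that finish Okazaki fragments were lower. LIG1, the ligase that seals the nicks, had signals of 15.7, 17.7 and 16.4 in sensitive and 12.5, 9.51 and 8.78 in resistant arrays. FEN1, the flap endonuclease, had 158, 139 and 142 against 131, 86.2 and 104. In both genes the groups did not overlap and resistant 1 was the nearest to the sensitive arrays, with log2 fold changes of -0.71 (SE 0.17, adjusted p = 0.0013) and -0.47 (SE 0.13, adjusted p = 0.0036). Another FEN1 probe set had a log2 fold change of -0.46.

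The fork protection genes had the lowest median of the groups with more than 1 gene, -0.80, and 3 of 4 were lower. TIPIN had signals of 37.1, 29.7 and 33.9 in sensitive and 19.4, 14.2 and 19.6 in resistant arrays. The groups were well apart and the level in resistant cells was 52.6% of that in sensitive cells (log2 fold change -0.93, SE 0.17, adjusted p = 2.4e-05). CLSPN, the adaptor through which ATR activates CHK1, had signals of 3.92, 4.47 and 2.94 against 2.51, 1.58 and 1.46. CLSPN was dim and its sensitive arrays varied, which is reflected in its wide interval (log2 fold change -1.05, interval -1.63 to -0.48, adjusted p = 0.0034). Its other 2 tested probe sets had log2 fold changes of -0.82 and -0.98, of which the former passed among probe sets. TIMELESS, the partner of TIPIN, fell by 0.68 on the log2 scale (adjusted p = 0.0016). Its other tested probe set, dim, had a log2 fold change of -0.08 (adjusted p = 0.92 among probe sets), and with the median of both the TIMELESS value was -0.38 and did not pass (adjusted p = 0.17). WDHD1, which links polymerase alpha to the helicase, had a log2 fold change of -0.22 (adjusted p = 0.40).

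**Figure D4:**
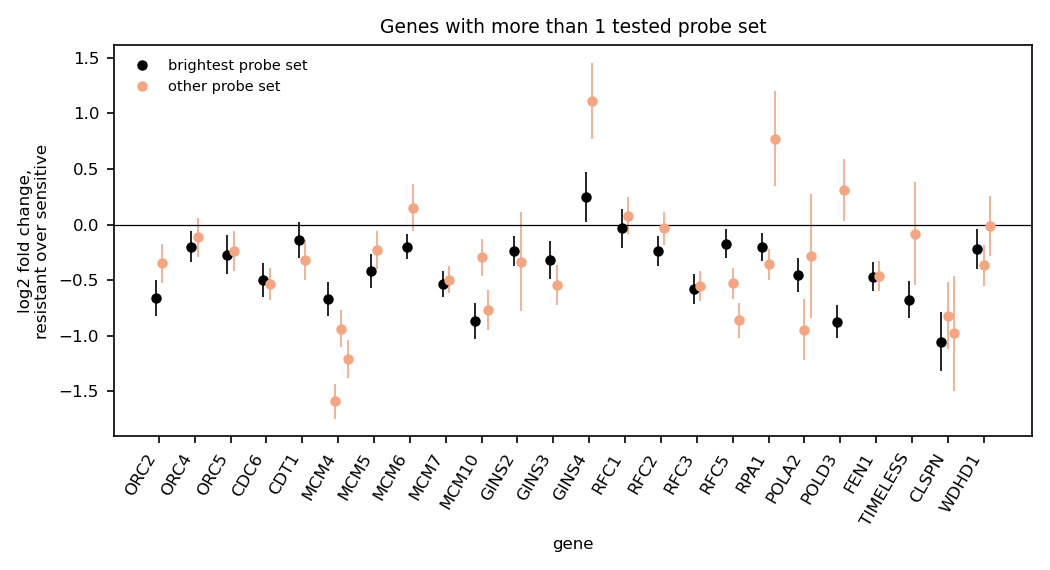
Change, as log2 of resistant over sensitive scaled signal, of every tested probe set of the 24 genes with more than 1, with black points for the brightest probe set, which was used for the gene, orange points for the others and lines of 1 standard error. The 4 MCM4 probe sets run from -1.59 to -0.67, and those of GINS4, POLD3 and RFC5 lie apart from each other.

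Probe sets other than the brightest were read from the same arrays. Of 88 probe sets that name a gene of the list, 80 were tested, and 24 genes had more than 1 tested probe set. Of the 32 tested probe sets that were not the brightest of their gene, 13 were lower and 1 was higher in the test across all 26833 tested probe sets, of which 19.5% were lower and 9.52% higher. The probe set that was higher belonged to GINS4.

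Replication factors outside the list were counted for comparison, from a list of 42 genes of which 38 were tested. In the resistant cells 16 (42.1%) were lower and 2 were higher (ETAA1 and RNASEH2C), with a median log2 fold change of -0.34. Among all tested genes 22.5% were lower and 12.4% higher. After quantile normalization 13 of the 38 were lower and 6 higher, against 18.8% and 21.1% of all tested genes. With so few genes, this count of higher genes lay near the background. The largest changes were those of TICRR (-1.10, adjusted p = 2.8e-05), which brings CDC45 to the loaded helicase, DSCC1 (-1.06, adjusted p = 4.0e-08), part of an alternative clamp loader, POLE4 (-0.88, adjusted p = 8.8e-05), a small subunit of polymerase epsilon, and DONSON (-0.74, adjusted p = 0.00045), which delivers GINS. The count of higher genes rested on single arrays, since it was 1 without sensitive 1, sensitive 3, resistant 1 or resistant 2, 0 without sensitive 2 and 3 without resistant 3.

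Genes of mitosis, which are used after replication in the same cycle, were counted in the same way. Of 36 genes 22 were lower and 0 were higher in limma, against 22.5% and 12.4% of all tested genes, with a median log2 fold change of -0.44. The count higher was also 0 in limma at an unadjusted p under 0.05. After quantile normalization 19 were lower and 1 was higher, against 18.8% and 21.1% of all tested genes. The largest changes were those of KIF23 (-1.08), UBE2C (-1.03), TTK (-0.99) and AURKA (-0.98), which act in cytokinesis, cyclin destruction, the spindle checkpoint and centrosome maturation. MKI67, a common proliferation marker that was picked here after its values were seen, had a log2 fold change of -0.06 (adjusted p = 0.80). TOP2A was on both of these lists, and without it 21 of 35 mitotic genes were lower. Whether the shift of mitotic genes has a part in that of the replication genes was not tested.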

How the data were processed

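Total RNA from 3 MTX-sensitive and 3 MTX-resistant HT29 samples, grouped by the submitters' labels, was hybridized to 6 arrays. The values deposited by the authors are linear MAS5 intensity values for 54675 probe sets. The MAS5 version and genome build are not given in the sources used here. MAS5 scales over the whole array, so a level is relative to all other transcripts. The later steps of the study, carried out in other software, come after these values.

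After 62 control probe sets were left out, a platform annotation gave 41091 probe sets a single gene, 1801 several and 11721 none. Symbols were updated with RefSeq's table of GRCh38.p14. The brightest single-gene probe set stood for each gene. Signals were divided by the array median, floored at 0.01 and taken to log2. The 11835 genes whose scaled signal averaged at least 1 were fitted in limma 3.58.1 under R 4.3.3 (lmFit, then eBayes with trend), and p-values were adjusted by Benjamini-Hochberg over all of them. The procedure was tested on simulated data. Figures were drawn with matplotlib 3.10.9.

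Values in every array were given for the 2 genes of each complex or role with the largest change, for genes called higher and for the genes of the ratios; of other lists, up to 4 genes with the largest change were named. PRIM1 was added to the genes given by array, and probe sets were singled out, after their values were seen. The genes and lists were chosen with earlier results of these data known. Alternatives changed the scaling, floor, pseudocount, brightness filter, test or probe set, added a replicate block, or left out an array. Detection calls, scan dates and batches were not used here. LRWD1, POLDIP2 and MMS22L of the other replication factors and CD68 of the markers had no single-gene probe set, and RPA4 was too dim to be tested.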

Additional observations from a re-analysis of the deposited data

How the results depend on the processing

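Over 19 alternatives the 48 genes gave 912 values, of which 812 kept their direction and their side of the threshold, 83 kept the direction and lost the call, 16 gained a call and 1 reversed. The reversed value was RFC3 averaged over all of its probe sets (log2 fold change 0.40, adjusted p = 0.21), which includes a probe set under the array median. Against 24 lower genes of the list, the methods' t-test gave 9 with equal and 3 with unequal variances. Of all tested genes 9.49% and 1.13% were lower in these tests. In the same order of tests ORC gave 1 and 0, MCM2 to MCM7 1 and 0, RFC 0 and 0, the polymerases 4 and 2, other replication factors 8 and 0, and mitotic genes 11 and 0. Higher genes of the list, 1 in the analysis reported, were 3 after quantile normalization, 2 after scaling to the median of probe sets past the filter, 2 with the median of a gene's probe sets, and 0 in either t-test. With the median of probe sets GINS and RFC had 2 lower genes each. Other replication factors higher, 2 in the analysis reported, were 6 after quantile normalization, 5 after scaling to the median of probe sets past the filter, 1 with no filter on dim probe sets, 1 in limma without a trend, 1 and 0 in the t-tests and 0 with the mean of all probe sets. Mitotic genes higher were 1 after quantile normalization. The causes were not tested.

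With each array left out in turn, lower genes of the list ran from 17 to 28, ORC from 2 to 3, MCM2 to MCM7 from 3 to 4, GINS from 1 to 2, the polymerases from 2 to 8, other replication factors lower from 11 to 17 and higher from 0 to 3, and mitotic genes lower from 17 to 24. The list's median relative to all genes stayed between -0.34 and -0.25. Across all tested genes, 2659 were lower and 1472 higher after scaling to the array median, 2230 and 2499 after quantile normalization, 2765 and 1907 with no further scaling, and 2537 and 2291 after scaling to the median of probe sets past the filter, with medians of -0.10, 0.02, -0.05 and 0.00. Replicate numbers are shared between the groups, but arrays of the same number deviated together only weakly (correlations 0.075, 0.023 and 0.048), so they were not taken as pairs. The list medians ran in the same order in both groups. In arrays 1, 2 and 3 they were 0.07, -0.04 and -0.03 for sensitive and -0.23, -0.49 and -0.37 for resistant cells. The medians of all tested genes had this order too, with 0.08, -0.04 and -0.03 for sensitive and 0.07, -0.20 and -0.15 for resistant cells. The order is thus not particular to the list, and relative to all tested genes it differed between the groups. Whether the numbers mark pairs is not settled here. With the replicate block 27 genes of the list were lower and 1 higher. The share of all tested genes that were lower also rose, to 27.6% from 22.5% in the analysis reported. In the list MCM2, PCNA and PRIM1 gained the call (adjusted p = 0.041, 0.024 and 0.037) and no other call changed. Dim genes such as CLSPN and GINS4 limit what can be read from single arrays.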
